A study of Mus musculus with 12 samples.

Results

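Cells sorted as intra-aortic clusters from the mouse embryo held transcripts of several secreted peptides of nerve and endocrine cells. The 8 genes described here, out of 24138 rows in each gene table, are Sst, Cck, Npy and Gal, which encode peptide hormones, Nxph4, which encodes a secreted partner of the neurexins, the granin genes Chga and Scg2, and Pcsk1n, which encodes a granin-like inhibitor of a prohormone convertase. They were taken by symbol, and each had 1 row in every table. They were selected on values of these same libraries, as neuropeptide and granule genes described as higher in G1 than in S/G2/M cells at E10.5. All comparisons with G1 cells at E10.5 are therefore descriptions of the genes and carry no test.

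The cells came from the intra-aortic haematopoietic clusters, small groups of cells attached to the lining of the dorsal aorta, where the first blood stem and progenitor cells form. All animals were of strain C57BL/6, and the tissue was the AGM (aorta-gonad-mesonephros region). The 4 groups were S/G2/M cells from Fucci Green embryos at E11.5, G1 cells from Fucci Red embryos at E11.5, S/G2/M cells from Fucci Green embryos at E10.5 and G1 cells from Fucci Red embryos at E10.5, with 3 samples each. E10.5 and E11.5 are days of gestation. Every cell was sorted as negative for SSEA-1 and positive for CD31 and CD117, with mAG marking S/G2/M cells and mKO2 marking G1 cells. Phase and reporter strain cannot be told apart in these groups. The labels do not say if the 3 samples per group are from different litters or pools.

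The authors deposited 1 value per gene and group in FPKM, which scales fragments by transcript length and library size and allows levels to be compared between genes of different length. Values of single samples were not used here, so neither an error nor the sequencing depth can be given. The words rose and fell are kept for genes with a q-value under 0.05 by the authors' deposited tables, whose way of handling the 3 samples is not given. The sort genes were present, with Kit (CD117) at 28.9 FPKM in S/G2/M and 16.9 FPKM in G1 cells at E11.5, and 12.7 FPKM in S/G2/M and 15.1 FPKM in G1 cells at E10.5. All 28 listed markers of cluster, blood progenitor and endothelial cells were above 0 in every group.

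Peptide hormones are made as longer precursors that enter dense core vesicles, where convertases and carboxypeptidases trim them before release. Granins are acidic proteins that help to build these vesicles and are widely used as marks of neuroendocrine cells. In the embryo such genes are best known from differentiating neurons, the sympathoadrenal lineage and the endocrine cells of gut and pancreas.

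Many genes of this class carry a cyclic AMP response element in their promoter, a site bound by CREB-family factors, and it was first described in the somatostatin gene. RefSeq windows of the build GRCm38.p6, from 250 bases before to 50 bases after the start site, were found for 7 of the 8 genes, Nxph4 being the other one. The element TGACGTCA, which reads the same on both strands, was in the windows of Sst and Scg2, and in 1.79% of all 32851 windows. Its core TGACG, searched on both strands and contained in the full element, was in the windows of Sst, Cck, Scg2, Chga and Gal, and in 20.8% of all windows. The Sst window is shown in full because Sst had the highest level of the 8 genes, with the element in capitals, which begins at position -48 from the start site. It lies on the minus strand at chr16:23890795-23891094.
Sst: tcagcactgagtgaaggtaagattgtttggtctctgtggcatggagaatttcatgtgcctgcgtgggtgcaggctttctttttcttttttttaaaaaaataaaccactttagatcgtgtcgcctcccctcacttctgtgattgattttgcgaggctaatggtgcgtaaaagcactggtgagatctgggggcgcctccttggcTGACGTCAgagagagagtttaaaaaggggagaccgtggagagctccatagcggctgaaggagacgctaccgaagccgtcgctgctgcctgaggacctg

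Stretches of 60 bases around the match are set side by side for the other genes that hold it, so that the site can be compared, with the full element or the core in capitals. They lie at chr9:121495710-121495769 (minus strand) for Cck, chr1:79440061-79440120 (minus strand) for Scg2, chr12:102554869-102554928 (plus strand) for Chga and chr19:3414495-3414554 (minus strand) for Gal. The match begins at position -47 in Cck, on the opposite strand, at -68 in Scg2, at -44 in Chga and at 20 in Gal, after the start site. Positions are counted from the RefSeq start site, and other annotations place some starts elsewhere. The Gal stretch lies before the deposited Gal locus, which starts at 3414457 on the minus strand. The Scg2 stretch overlaps the deposited locus, which reaches 79440090, and lies within the GENCODE M21 gene, which reaches 79440120. These matches describe letters in the windows and say nothing of binding in these cells.
Cck: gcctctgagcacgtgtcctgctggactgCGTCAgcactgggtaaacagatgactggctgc
Scg2: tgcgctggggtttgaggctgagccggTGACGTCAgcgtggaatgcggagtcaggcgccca
Chga: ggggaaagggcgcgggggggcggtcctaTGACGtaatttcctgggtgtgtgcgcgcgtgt
Gal: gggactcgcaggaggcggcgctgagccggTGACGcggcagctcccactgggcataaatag

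The 8 genes did not share 1 pattern. Sst, Cck and Nxph4 were abundant in G1 cells at E10.5 and much lower elsewhere, whereas the other 5 genes were at low levels in every group. In total 6 of the 8 genes had their highest value in G1 cells at E10.5. Npy and Gal were highest in G1 cells at E11.5 instead. Of the 8, Gal alone was not higher in G1 than in S/G2/M cells at E10.5, against the description of the list. Npy and Pcsk1n were at nearly the same level in G1 cells of both ages, with ratios of 1.02 and 1.05, so their highest group is not settled. The levels below are from the authors' tables of the 2 phases at each age, which were scaled separately, and the values of the same group in the tables by age differed by at most 5.78% for these genes.

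**Figure D1:**
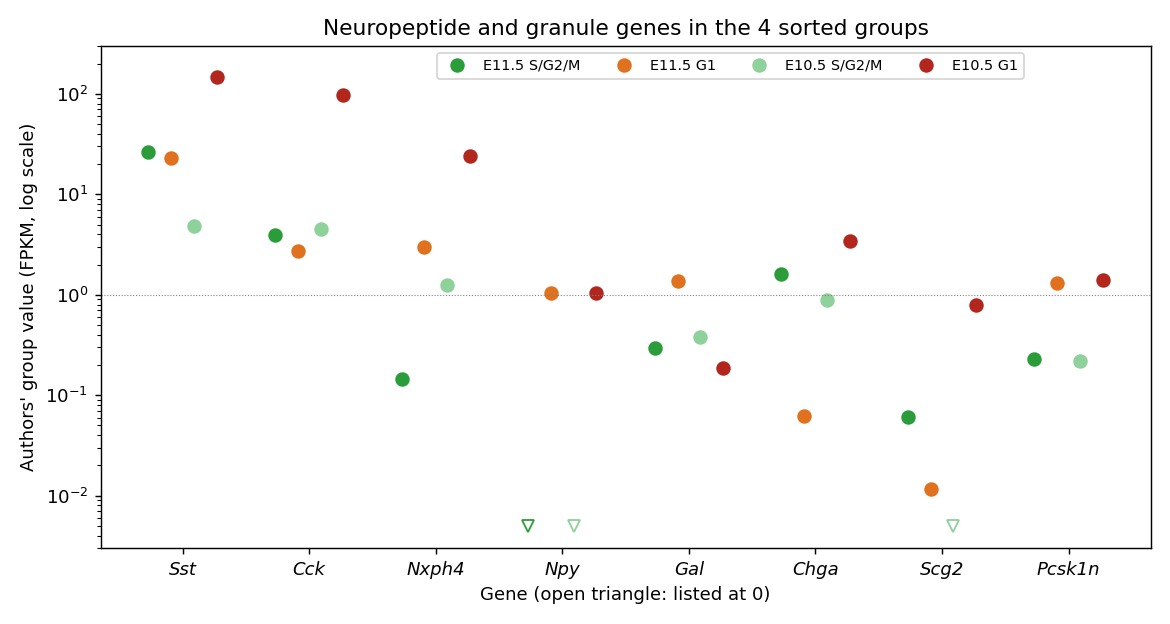
Authors' group values in FPKM (log scale) of the 8 genes, with 1 point per gene and sorted group and no error, since no values of single samples were used. Sst, Cck and Nxph4 stand at 148, 97.5 and 24.3 FPKM in G1 cells at E10.5, while Gal is lowest there at 0.188 FPKM, and open triangles mark values listed at 0.

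Sst encodes somatostatin, which inhibits the release of growth hormone and many other hormones, and lies on chromosome 16 (23889581 to 23890844, mm10), in a protein-coding gene of 2 exons. It had 26.3 FPKM in S/G2/M and 23.0 FPKM in G1 cells at E11.5, and 4.84 FPKM in S/G2/M and 148 FPKM in G1 cells at E10.5. Both groups at E11.5 thus lay between the 2 groups at E10.5. In G1 cells at E10.5 it ranked 466 among the 24138 rows by level.

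Cck, the gene of cholecystokinin, a gut hormone and brain neuropeptide, lies on chromosome 9 (121489824 to 121495694) and has 3 exons. It had 3.90 FPKM in S/G2/M and 2.71 FPKM in G1 cells at E11.5, and 4.54 FPKM in S/G2/M and 97.5 FPKM in G1 cells at E10.5. A single group was high, and the other 3 lay within a narrow range. The ratio of Sst to Cck was 6.74 in S/G2/M and 8.49 in G1 cells at E11.5, and 1.07 in S/G2/M and 1.52 in G1 cells at E10.5. The pair therefore did not keep 1 proportion between the ages.

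Npy encodes neuropeptide Y, a cotransmitter of sympathetic neurons, and lies on chromosome 6 (49822729 to 49829505). It was listed at 0 in S/G2/M cells and at 1.05 FPKM in G1 cells at E11.5, and likewise at 0 in S/G2/M cells and at 1.03 FPKM in G1 cells at E10.5. Both G1 groups were alike and both S/G2/M groups were at 0. The authors' tables did not test Npy in any of the 4 comparisons.

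Gal, the gene of galanin, a peptide of sensory and endocrine cells, lies on chromosome 19 (3409917 to 3414457) and has 6 exons. It had 0.298 FPKM in S/G2/M and 1.36 FPKM in G1 cells at E11.5, and 0.384 FPKM in S/G2/M and 0.188 FPKM in G1 cells at E10.5. G1 cells at E10.5 were the lowest of the 4 groups for this gene.

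Nxph4 encodes neurexophilin 4, a neuropeptide-like glycoprotein that binds the synaptic receptors called neurexins, and lies on chromosome 10 (127525473 to 127534559). It had 0.147 FPKM in S/G2/M and 2.97 FPKM in G1 cells at E11.5, and 1.26 FPKM in S/G2/M and 24.3 FPKM in G1 cells at E10.5. At both ages the value was lower in S/G2/M cells. Of the 8 genes, it shared this order with Npy and Pcsk1n.

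The granin gene Chga, which encodes chromogranin A, lies on chromosome 12 (102554969 to 102565027) and has 8 exons. It had 1.63 FPKM in S/G2/M and 0.0624 FPKM in G1 cells at E11.5, and 0.891 FPKM in S/G2/M and 3.47 FPKM in G1 cells at E10.5. The order of the phases was thus opposite at the 2 ages. Scg2, the gene of secretogranin II on chromosome 1 (79434669 to 79440090), had 0.0602 FPKM in S/G2/M and 0.0116 FPKM in G1 cells at E11.5, and was listed at 0 in S/G2/M and at 0.783 FPKM in G1 cells at E10.5. It was under 1 FPKM in every group.

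Pcsk1n encodes proSAAS, which inhibits prohormone convertase 1/3, and its deposited locus lies on chromosome X (7919822 to 7928607). It had 0.232 FPKM in S/G2/M and 1.32 FPKM in G1 cells at E11.5, and 0.219 FPKM in S/G2/M and 1.39 FPKM in G1 cells at E10.5. The deposited locus also spans Eras, which lies on the opposite strand and has a row of its own. Whether strand was used in counting is not given, so the Pcsk1n value is uncertain.

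Summed over the 8 genes, the level was 32.6 FPKM in S/G2/M and 32.5 FPKM in G1 cells at E11.5, and 12.1 FPKM in S/G2/M and 277 FPKM in G1 cells at E10.5. Sst, Cck and Nxph4 made up 97.5% of the sum in G1 cells at E10.5, and Sst alone made up 80.8% of it in S/G2/M cells at E11.5. In bulk RNA such as this, fewer cells of a type and less RNA per cell cannot be told apart.

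The phases at E10.5 were compared in the contrast that named the list. Sst was 30.6-fold lower in S/G2/M than in G1 cells, Cck 21.5-fold lower and Nxph4 19.3-fold lower. Chga was 3.89-fold lower and Pcsk1n 6.35-fold lower, from the low levels given above, and Gal was 2.05-fold higher in S/G2/M cells at values below 0.5 FPKM. In the authors' deposited table Sst, Cck and Nxph4 were called lower among the 5 genes that were tested, Npy, Gal and Scg2 being untested. Over all genes 0.655% of 12984 tested genes were called in either direction, 0.193% higher and 0.462% lower. Nothing is read from this count, since the contrast had entered the choice.

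The phases at E11.5 hold no cell of E10.5. None of the 8 genes was called at this age in the authors' deposited table. The share of all 12414 tested genes that Cuffdiff called was 0.701% in either direction, 0.137% higher and 0.564% lower. It tested 6 of the 8, and 0 of them had p under 0.05 before adjustment, against 8.27% of all tested genes. Sst was 1.14-fold higher in S/G2/M cells (q = 0.969, authors' deposited table). Cck was 1.44-fold higher there (q = 0.974, authors' deposited table). Of all tested genes above 0 in both groups, 65.7% had a lower log2 ratio than Sst. Nxph4, Chga, Gal and Pcsk1n had larger ratios at low levels, and the authors' deposited table gave them q-values of 0.822, 0.798, 0.885 and 0.834. Nxph4 was 20.3-fold lower in S/G2/M cells, from 0.147 FPKM in S/G2/M and 2.97 FPKM in G1 cells. With 1 FPKM added to each value its log2 ratio was -1.79 at E11.5 and -3.49 at E10.5, so the near-equal folds at the 2 ages hold only without a pseudocount. The interaction of phase and age was not tested, because it needs values of single samples.

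**Figure D2:**
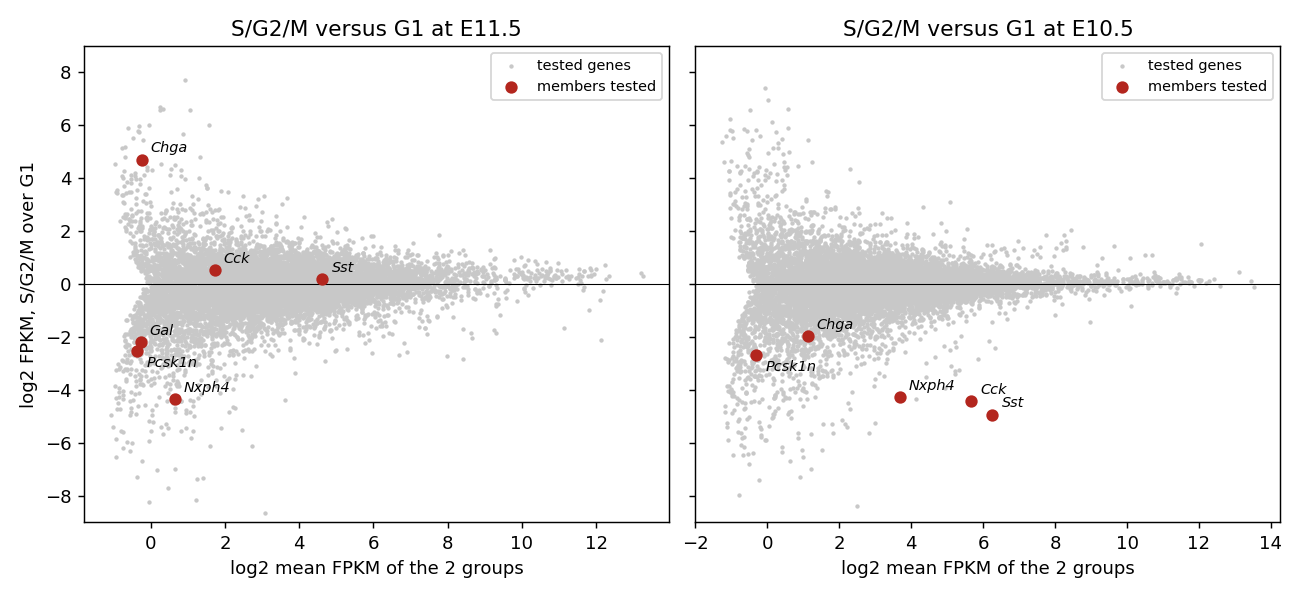
Log2 ratio of FPKM, S/G2/M over G1, against the log2 mean FPKM of both groups for every gene tested by the authors and above 0 in both groups, at E11.5 and at E10.5. At E10.5 Sst, Cck and Nxph4 lie between -4.93 and -4.27, while at E11.5 Sst and Cck lie at 0.20 and 0.53.

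The ages were compared within each phase. In S/G2/M cells none of the 8 genes was called by Cuffdiff in the authors' deposited table, where the share called over all 12768 tested genes was 4.07% in either direction, 2.14% higher and 1.93% lower. It tested 4 of the 8, and 1, Sst, had p under 0.05 before adjustment, against 13.9% of all tested genes. The E10.5 S/G2/M cells also stand in the contrast that named the list. Sst was 5.79-fold higher at E11.5, with 27.7 FPKM at E11.5 and 4.79 FPKM at E10.5, and the authors' deposited table gave p = 0.0114 and q = 0.156, which does not pass. Cck was at 4.09 FPKM at E11.5 and 4.47 FPKM at E10.5 (q = 0.982, authors' deposited table), and Chga at 1.68 FPKM at E11.5 and 0.898 FPKM at E10.5 (q = 0.828). Nxph4 had 0.155 FPKM at E11.5 and 1.25 FPKM at E10.5 (q = 0.670, authors' deposited table).

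In G1 cells the comparison of ages again holds the group that named the list, so its values are given as a description. Sst was 6.09-fold lower at E11.5, with 23.3 FPKM at E11.5 and 142 FPKM at E10.5. Cck was 34.2-fold lower, with 2.72 FPKM at E11.5 and 93.2 FPKM at E10.5, and Nxph4 was 7.72-fold lower. Sst was the single gene of 6 tested that was called in the authors' deposited table, where 4.45% of 12953 tested genes were called, 3% higher and 1.45% lower. The fold of Cck exceeded that of Sst, yet its p in the authors' deposited table was 0.141 against 0.0016 for Sst. Gal was 7.53-fold higher at E11.5, from levels of 1.36 FPKM at E11.5 and 0.181 FPKM at E10.5, while Pcsk1n had 1.34 FPKM in both groups. Sst thus had a lower value at E11.5 in G1 cells and a higher value at E11.5 in S/G2/M cells, and the difference between those changes was not tested.

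The machinery that packs and trims such peptides was measured in all 4 groups, in a list that shares genes with lists below. Snap25 is also a pan-neuronal marker there, Dbh, Slc18a1 and Slc18a2 are also sympathoadrenal markers, and Vgf is also a listed precursor. The lists are therefore not independent. Of 31 listed genes for other granins, prohormone processing and vesicle release, 1 of 25 tested fell in S/G2/M cells at E10.5. Before adjustment, 6 of the 25 were lower with p under 0.05 and 0 were higher (authors' deposited table). Over all tested genes, 6.69% had such a p in either direction, and 0.462% were called lower. The median log2 ratio of the 25 was -1.03, against -0.04 for all tested genes. Cadps, which primes dense core vesicles for release, was the one that fell, by 10.3-fold, with 0.867 FPKM in S/G2/M and 8.93 FPKM in G1 cells. Cpe, the carboxypeptidase that trims peptide precursors, had 17.3 FPKM in S/G2/M and 27.9 FPKM in G1 cells at E11.5, and 25.6 FPKM in S/G2/M and 36.1 FPKM in G1 cells at E10.5, and did not pass in any comparison. Pam, which amidates the ends of peptides such as cholecystokinin, ranged from 5.70 to 7.10 FPKM over the groups. The convertase gene Pcsk1 was at most 0.182 FPKM, and Pcsk2 was highest in G1 cells at E10.5 at 1.31 FPKM. The vesicle granins Chgb and Scg3 had 2.46 and 2.11 FPKM in S/G2/M cells and 12.1 and 10.4 FPKM in G1 cells at E10.5, and did not pass (q = 0.641 and 0.955, authors' deposited table).

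In the other comparisons this group held few calls. At E11.5 none of 18 tested genes was called between the phases, with 1 lower and 1 higher gene with p under 0.05 before adjustment (authors' deposited table). Between the ages, none of 24 passed in G1 cells, with 5 lower and 1 higher with p under 0.05 before adjustment (authors' deposited table). Over all tested genes in G1 cells, 15.4% had such a p in either direction. In S/G2/M cells, where 1.93% of all tested genes were called lower, 2 of 23 fell at E11.5. They were Syt7, a calcium sensor of slow vesicle release, with 0.274 FPKM at E11.5 and 2.56 FPKM at E10.5, and Ptprn, a vesicle membrane protein, listed at 0 at E11.5 and at 0.995 FPKM at E10.5. Without genes at 0, 1 of these 2 calls remained, and at a minimum of 5 FPKM 0 remained.

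Other precursors of neuropeptides and hormones were in part listed at 0, which at an unknown depth does not show absence. Of 52 listed genes, 33 were listed at 0 in S/G2/M and 30 in G1 cells at E11.5, and 34 in S/G2/M and 28 in G1 cells at E10.5. In G1 cells at E10.5, 12 of the 52 had at least 1 FPKM. Nmb, the gene of neuromedin B, was measured in every group, with 20.1 FPKM in S/G2/M and 8.10 FPKM in G1 cells at E11.5, and 10.2 FPKM in S/G2/M and 8.30 FPKM in G1 cells at E10.5. Sct, the secretin gene, had 0.359 FPKM in S/G2/M and 8.87 FPKM in G1 cells at E11.5, and 2.80 FPKM in S/G2/M and 7.87 FPKM in G1 cells at E10.5. In G1 cells at E10.5, Ucn (urocortin) had 7.15 FPKM, Edn1 (endothelin 1) 6.77 FPKM, Edn3 (endothelin 3) 4.85 FPKM and Cartpt, a brain peptide gene, 4.57 FPKM, all above the levels of Npy, Gal, Chga, Scg2 and Pcsk1n in that group. Cort, the close relative of Sst that encodes cortistatin, was at most 0.444 FPKM. At E10.5, 1 of 13 tested genes rose in S/G2/M cells, Penk, the enkephalin precursor, with 2.87 FPKM in S/G2/M and a listed 0 in G1 cells. The median log2 ratio of the 9 tested genes above 0 in both groups was -1.78. At E11.5, none of 7 tested genes was called between the phases and none had p under 0.05 before adjustment (authors' deposited table). With age, Pomc, the precursor of corticotropin, fell in G1 cells, being listed at 0 at E11.5 and at 4.51 FPKM at E10.5, 1 call among 13 tested. In S/G2/M cells Nxph1, another neurexophilin gene, rose, with 1.34 FPKM at E11.5 and a listed 0 at E10.5, 1 call among 9 tested. Each of these 3 calls, of Penk, Pomc and Nxph1, was made against a listed 0. Over all tested genes, 0.193% were called higher between the phases at E10.5. With age, 1.45% were called lower in G1 cells and 2.14% higher in S/G2/M cells. Without genes at 0, or at a minimum of 5 FPKM, 0 genes of the list were called in any of these comparisons. Penk had 0.0242 FPKM at E11.5 and 2.90 FPKM at E10.5 in S/G2/M cells, and was not called (q = 0.691, authors' deposited table).

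None of the 19 listed receptor genes for the encoded peptides was called in any of the 4 comparisons of the authors' deposited tables, in which 4 or 5 were tested. Before adjustment, p was under 0.05 for 1 of them, Nrxn3, between the phases at E10.5, against 6.69% of all tested genes. Gpr171, a receptor that binds a peptide cut from proSAAS, had 18.0 FPKM in S/G2/M and 4.47 FPKM in G1 cells at E11.5, and 1.93 FPKM in S/G2/M and 1.98 FPKM in G1 cells at E10.5. The somatostatin receptor gene Sstr2 had 1.02 FPKM in S/G2/M and 0.307 FPKM in G1 cells at E11.5, and 0.0987 FPKM in S/G2/M and 1.48 FPKM in G1 cells at E10.5. Cckbr, a receptor of cholecystokinin, was listed at 0 in every group. Galr3, a galanin receptor, had 2.81 FPKM in S/G2/M and 2.49 FPKM in G1 cells at E11.5, and 3.76 FPKM in S/G2/M and 3.60 FPKM in G1 cells at E10.5. Nrxn3, a neurexin gene, had 0.680 FPKM in S/G2/M and 3.09 FPKM in G1 cells at E10.5.

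**Figure D3:**
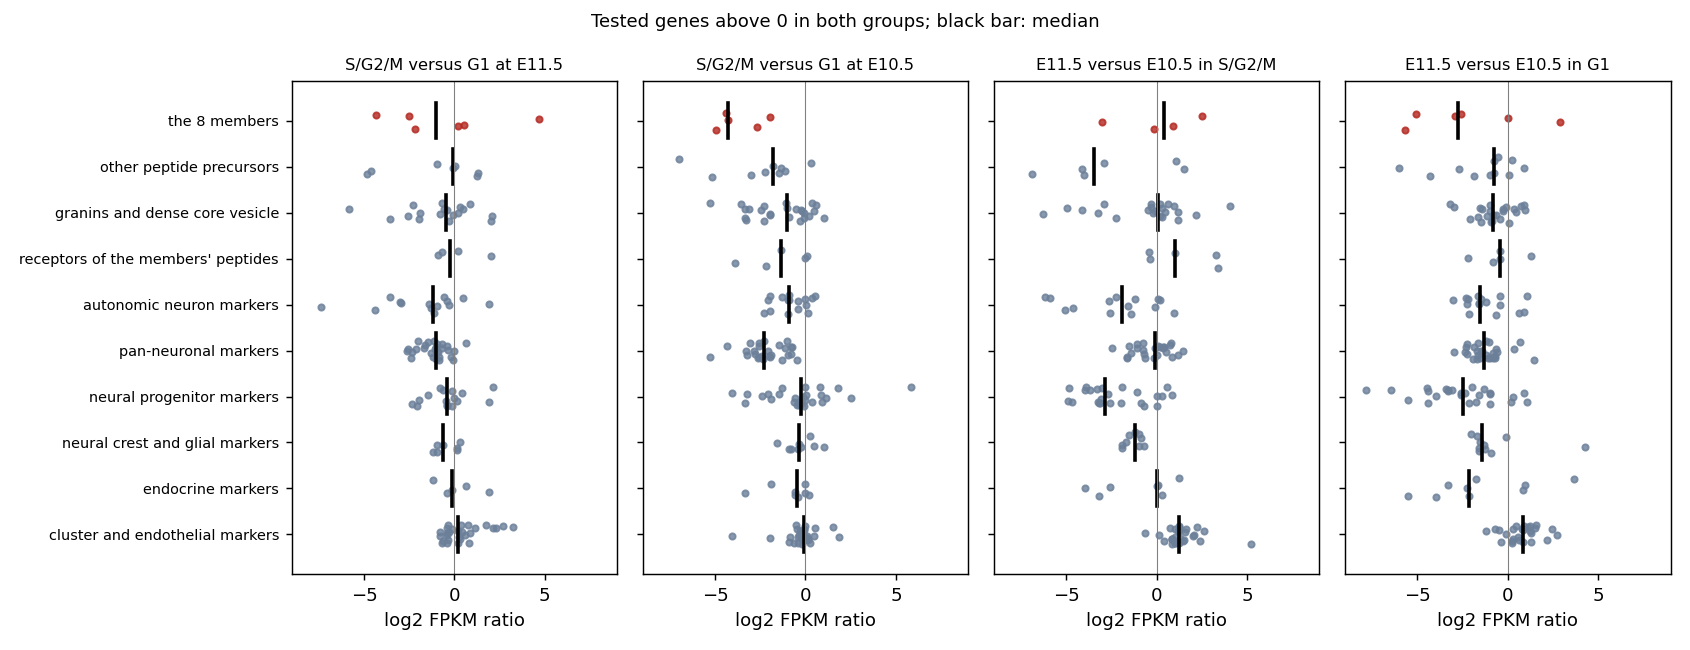
Log2 ratios of FPKM in the 4 comparisons for the 8 genes (red, top row) and for the 9 gene lists (blue-grey), with 1 point per gene that was tested by the authors and above 0 in both groups, and the median as a black bar. The pan-neuronal medians are -1.01 and -2.28 for the phases at E11.5 and E10.5, while the cluster and endothelial medians are 0.23 and -0.11.

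Markers of neurons were lower in S/G2/M cells at E10.5, as Sst, Cck and Nxph4 were. Of 28 pan-neuronal markers, 8 of 27 tested fell in S/G2/M cells, all 27 had lower values there, and the median log2 ratio was -2.28 against -0.04 for all tested genes. Over all tested genes, 0.462% were called lower. The authors' second table of the same groups called 10 of the 28 markers. Tubb3, the neuronal tubulin, had 25.6 FPKM in S/G2/M and 135 FPKM in G1 cells, Nefl, a neurofilament gene, had 14.4 FPKM in S/G2/M and 101 FPKM in G1 cells, and Rtn1 fell by 9.58-fold. Nefm, another neurofilament gene, fell by 3.94-fold, and Stmn2, a regulator of microtubules in growing axons, fell by 5.19-fold. None of the 28 was listed at 0 in any group. The summed level of the 28 genes was 231 FPKM in S/G2/M and 404 FPKM in G1 cells at E11.5, and 287 FPKM in S/G2/M and 1075 FPKM in G1 cells at E10.5. The part of these neuronal transcripts in the levels of Sst, Cck and Nxph4 was not tested.

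At E11.5, none of the 28 pan-neuronal markers was called between the phases, 27 were lower in S/G2/M cells, and 10 of these had p under 0.05 before adjustment (authors' deposited table). Over all tested genes, 8.27% had such a p in either direction. With age, 6 of 28 fell in G1 cells, where 1.45% of all tested genes were called lower. In S/G2/M cells none of 25 tested was called, with 6 lower and 1 higher with p under 0.05 before adjustment (authors' deposited table). Over all tested genes in S/G2/M cells, 13.9% had such a p in either direction. Set against Tubb3, the level of Sst was 1.80 times that of Tubb3 in S/G2/M and 0.875 times in G1 cells at E11.5, and 0.189 times in S/G2/M and 1.09 times in G1 cells at E10.5. The level of Cck was 0.268 times that of Tubb3 in S/G2/M and 0.103 times in G1 cells at E11.5, and 0.177 times in S/G2/M and 0.721 times in G1 cells at E10.5. Neither gene kept 1 ratio to this neuronal marker. Tubb3 is 1 of the 28, and their folds between the phases at E10.5 differed widely. Tubb3 was 5.29-fold lower in S/G2/M cells, Stmn4 1.38-fold, Stmn3 20.1-fold and Snap25 38.5-fold, and the last 3 did not pass. Ratios of Sst and Cck to the other markers were not computed.

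Of 31 neural progenitor and neural tube markers, none of 27 tested was called between the phases at E10.5, with 3 lower and 1 higher with p under 0.05 before adjustment (authors' deposited table). Their median log2 ratio was -0.24. Over all tested genes, 6.69% had such a p in either direction. With age, 1 of 26 fell in G1 cells and 3 of 25 fell in S/G2/M cells, with median log2 ratios of -2.47 and -2.85, against 0.02 and 0.03 for all tested genes. Values were higher at E11.5 for 4 of the tested genes in each phase, and 4.45% of all tested genes were called with age in G1 cells and 4.07% in S/G2/M cells. Neurod4, a proneural factor, had 1.41 FPKM at E11.5 and 12.1 FPKM at E10.5 in S/G2/M cells, and 1.89 FPKM at E11.5 and 15.9 FPKM at E10.5 in G1 cells, and fell in both. Pax7 and Sox3, factors of neural progenitors, were the others that fell in S/G2/M cells. Sox3 was listed at 0 there at E11.5. Without genes at 0, 2 of the 3 calls in S/G2/M cells remained, and at a minimum of 5 FPKM 1 remained. At E11.5, none of 16 tested was called between the phases, with 2 lower with p under 0.05 before adjustment (authors' deposited table). Over all tested genes, 8.27% had such a p in either direction.

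Sympathoadrenal and autonomic markers, the embryonic cells in which Npy, Chga and Dbh are usually found, were at moderate levels. None of 16 tested was called between the phases at E10.5, with 4 lower with p under 0.05 before adjustment (authors' deposited table), although the authors' second table of the same groups called 1. None of 14 was called at E11.5, where none had such a p. In G1 cells 2 of 17 fell with age. Chrna3, an acetylcholine receptor subunit, had 4.61 FPKM at E11.5 and 21.4 FPKM at E10.5, and Elavl4, an RNA-binding protein of neurons that is also among the pan-neuronal markers, had 5.93 FPKM at E11.5 and 29.2 FPKM at E10.5. In S/G2/M cells none of 14 was called, with 5 lower with p under 0.05 before adjustment (authors' deposited table). Over all tested genes, 6.69% had such a p between the phases at E10.5 and 13.9% with age in S/G2/M cells. With age in G1 cells, 1.45% of all tested genes were called lower. The summed level of the 19 genes was 32.1 FPKM in S/G2/M and 58.7 FPKM in G1 cells at E11.5, and 91.7 FPKM in S/G2/M and 165 FPKM in G1 cells at E10.5. Th, the enzyme that limits catecholamine synthesis, reached 2.72 FPKM in G1 cells at E10.5, and Pnmt, which makes adrenaline, was listed at 0 in all groups. Their part in the levels of the 8 genes was not tested.

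Among 13 neural crest and glial markers, Ngfr, a neurotrophin receptor, was the single gene of 9 tested that fell in S/G2/M cells at E10.5, with 11.7 FPKM in S/G2/M and 35.0 FPKM in G1 cells. Before adjustment, p was under 0.05 for 2 lower genes and 1 higher one, Snai2, a crest transcription factor gene with 17.3 FPKM in S/G2/M and 8.58 FPKM in G1 cells (authors' deposited table). Ngfr was also the 1 of 10 that fell with age in G1 cells, and Tfap2b, a crest transcription factor, was the 1 of 9 that fell with age in S/G2/M cells. None of 8 was called between the phases at E11.5, with 1 lower with p under 0.05 before adjustment (authors' deposited table). Over all tested genes, 0.462% were called lower between the phases at E10.5. With age, 1.45% were called lower in G1 cells and 1.93% in S/G2/M cells. The shares of all tested genes with such a p were 6.69% and 8.27% between the phases at E10.5 and E11.5. With age they were 15.4% in G1 and 13.9% in S/G2/M cells. Pancreatic and gut endocrine markers held no call in any comparison of the authors' deposited tables, with 1 lower gene with p under 0.05 before adjustment in each comparison of phases, 2 lower in G1 cells and 1 lower and 1 higher in S/G2/M cells with age. The endocrine list shares Gcg, Ppy, Ghrl and Iapp with the other precursors and Neurog3 with the neural progenitor markers, so it is not independent of them. The hormone genes Ins1, Ins2, Gcg and Ppy were listed at 0 in all 4 groups. Hhex, a transcription factor gene of that list that is also known in blood and endothelial cells, had 48.2 FPKM in S/G2/M and 31.0 FPKM in G1 cells at E11.5.

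Of 28 cluster, blood progenitor and endothelial markers, none was called between the phases at E10.5 in the authors' deposited table, with 2 lower and 1 higher with p under 0.05 before adjustment. At E11.5, 2 rose in S/G2/M cells, Hlf, a transcription factor gene of blood stem cells, by 4.93-fold and Adgrg1, an adhesion receptor gene, by 3.34-fold. Before adjustment, 6 higher and 0 lower genes had p under 0.05 at E11.5 (authors' deposited table). Over all tested genes, 0.137% were called higher there and 8.27% had such a p. With age, 6 of 27 rose in G1 cells and 11 of 28 rose in S/G2/M cells, and none fell, where 3% and 2.14% of all tested genes were called higher. Before adjustment, 13 higher genes in G1 and 18 in S/G2/M cells had p under 0.05 with age, and 0 lower ones (authors' deposited table). The shares of all tested genes with such a p were 15.4% and 13.9%. Between the phases at E10.5, 0.655% of all tested genes were called. Cd93 had 144 FPKM at E11.5 and 60.5 FPKM at E10.5 in G1 cells and 117 FPKM at E11.5 and 48.9 FPKM at E10.5 in S/G2/M cells, and rose in both. Pecam1, the gene of CD31, likewise rose in both, while Spi1, a myeloid transcription factor gene, rose in G1 cells and Cd34 and Lmo2 rose in S/G2/M cells. Cd34, a surface marker of blood progenitors, had 191 FPKM in S/G2/M and 166 FPKM in G1 cells at E11.5, and 90.1 FPKM in S/G2/M and 81.6 FPKM in G1 cells at E10.5. The summed level of the 28 genes was 1418 FPKM in S/G2/M and 1393 FPKM in G1 cells at E11.5, and 658 FPKM in S/G2/M and 734 FPKM in G1 cells at E10.5.

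The genes most like the 8 were sought by the distance between log2(FPKM + 1) differences from G1 cells at E10.5, over the 4 groups, and the mean of the 8 genes. Among 8367 other rows of at least 5 FPKM in G1 cells at E10.5, a minimum that 5 of the 8 genes themselves do not reach, the 8 nearest were Arhgap33, Scg3, Cacng4, Lrrc4b, Nek3, Myf5, 2610524H06Rik and Celf3. Scg3, a granin that anchors others in the vesicle membrane, stood at a distance of 0.23 with 1.93 FPKM in S/G2/M and 3.39 FPKM in G1 cells at E11.5, and 2.11 FPKM in S/G2/M and 10.4 FPKM in G1 cells at E10.5. Celf3, an RNA-binding protein of neurons, had 4.10 FPKM in S/G2/M and 24.4 FPKM in G1 cells at E10.5. Myf5, a factor of skeletal muscle precursors, was also among them, with 0.842 FPKM in S/G2/M and 5.60 FPKM in G1 cells at E10.5. The 8 genes themselves stood farther from their mean than these neighbours did, at distances of 1.44 for Chga up to 4.61 for Cck. Cacng4 alone of the 8 neighbours was also found both at a pseudocount of 0.1, where Arhgap33, Scg3, 2610524H06Rik and Celf3 were not, and at a minimum of 1 FPKM, where Lrrc4b, Nek3, Myf5, 2610524H06Rik and Celf3 were not. The mean rests on genes selected for their level in G1 cells at E10.5, so likeness is only a description of these groups.

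**Figure D4:**
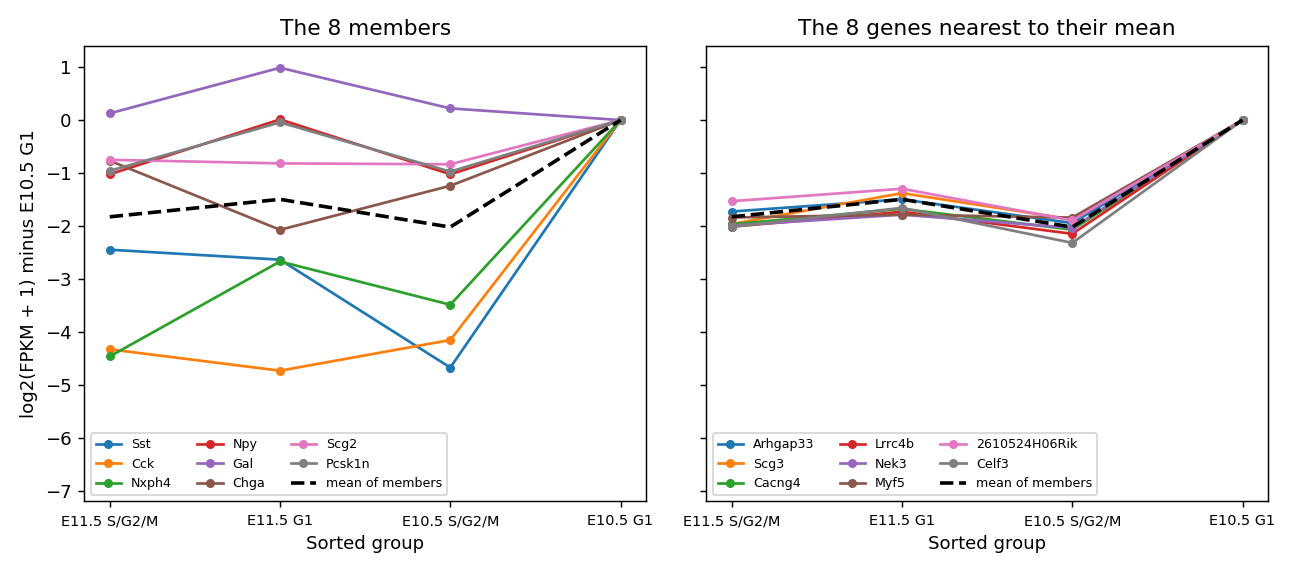
Log2(FPKM + 1) minus its value in G1 cells at E10.5, over the 4 sorted groups, for the 8 genes and for the 8 rows nearest to their mean (dashed line, drawn in both panels). The mean lies at -1.83 and -1.50 in S/G2/M and G1 cells at E11.5 and at -2.02 in S/G2/M cells at E10.5, and the 8 genes spread widely around it, with Gal above 0 and Cck lowest in G1 cells at E11.5.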

How the data were processed

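RNA of 12 samples in 4 groups was sequenced, and the authors deposited 6 gene tables. Per the file headers, they have the layout of Cuffdiff's gene test, with 1 FPKM value per gene for each of 2 groups and the authors' p-value and q-value. CASAVA 1.4, TopHat, Cuffdiff and mm10 are named, per the submitters' processing notes, while a bowtie version and mm8 are named per the labels' protocols. Deposited starts, counted from 0, plus 1 equalled the start in GENCODE M21 (GRCm38) for 5 of the 8 genes, so mm10 coordinates are printed. The group named G2 in the tables was read as S/G2/M. Low values of a group did not differ between tables by 1 factor (most ratios lay between 0.945 and 0.963 in G1 at E10.5), so whole reads were not recovered and depth is unknown.

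Fold changes are ratios of FPKM without a pseudocount, and none is given against 0. Calls are the authors' q-values under 0.05. The count and log-scale tests foreseen for values per sample were not run. The search for like genes found 8 of 8 planted profiles in a simulated table of 24138 rows. The planted profiles lay very near the mean, so this shows only that the search runs, not how well it ranks real genes. All 8 genes were named. Of each list, up to 5 called genes were to be named, or the 2 highest where none was called, and other names were added with their values in view. A gene named by this rule is not reported here. The genes, lists and rules were chosen with earlier results of these data known. Python 3.11.15, numpy 2.4.6 and pandas 2.3.3 were used.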

Additional observations from a re-analysis of the deposited data

How the results depend on the processing

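With the authors' q-value threshold at 0.01, 0 of the 8 genes were called between the phases at E10.5 in place of 3, and 0 with age in G1 cells in place of 1. At a threshold of 0.085 these counts stayed at 3 and 1. The looser threshold moved sympathoadrenal calls from 2 to 5 with age in G1 cells, and from 0 to 1 between the phases at E10.5. Pancreatic and gut endocrine calls moved from 0 to 1 with age in G1 cells. Pan-neuronal calls moved from 8 to 10 between the phases at E10.5. Cluster marker calls with age moved from 6 to 8 in G1 and from 11 to 15 in S/G2/M cells. The 8 nearest genes shared 4 with those found at a pseudocount of 0.1, and 3 with those found at a minimum of 1 FPKM. The 94 recomputed log2 ratios of the 8 genes kept their direction, which is no sign of stability. A pseudocount added to both values cannot turn a ratio. The other settings were scaling by the median and the authors' second tables of the same groups. Ratios of low genes shrank with a pseudocount of 1, to 0.22 for Gal and -0.97 for Pcsk1n between the phases at E10.5, 0.07 for Scg2 at E11.5 and -0.96 for Nxph4 with age in S/G2/M cells. The smallest p in the authors' deposited tables is 5e-05, and the depth is unknown. No paired analysis was possible because the tables hold group values without single samples, and leaving out a replicate was not possible for the same reason. No gene had another row of the same symbol, so that alternative was not run. Of the counts of called genes in the 9 lists, 207 recomputed values stayed within 1.5 times and 27 moved further. Many of the 207 were counts of 0, which settings that only tighten the filter cannot change. The tally is therefore no measure of stability. At q under 0.01 the pan-neuronal, vesicle (Cadps) and neural crest (Ngfr) calls at E10.5 and the 2 cluster marker calls at E11.5 fell to 0, and the cluster marker calls with age to 3 in G1 and 5 in S/G2/M cells. Without genes at 0, or at a minimum of 5 FPKM, all calls among the other peptide precursors were lost.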
